A study of Mus musculus with 21 samples.

Results

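A set of 32 genes for the contractile cytoskeleton and the myofibroblast state was followed in mouse kidney RNA-seq data. The genes were named one by one by symbol, with earlier results of these data known, and all 32 were found among the 21004 genes that have raw counts in the deposited data. Measurements came from 17 mice in 3 groups, all female apoE knockout (apoE KO) animals on the C57BL/6J background, started on their diets at 4 weeks of age, fed for 14 weeks and 18 weeks old when the kidneys were taken. The 5 control mice (Con) ate standard chow, the 6 Ade mice ate the same diet with adenine, which injures the kidney, and the 6 Ade + IMC mice ate adenine together with iodomethylcholine (IMC), a compound that blocks the making of trimethylamine by intestinal microbes. The apoE deletion was carried by every mouse, controls included, so no group had normal lipoprotein metabolism, and males were not studied. The 4 Con + IMC mice of the labels were not analysed here.

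Myofibroblasts are matrix-producing mesenchymal cells that arise in injured tissue, in the kidney largely from resident fibroblasts and pericytes. They are recognised by smooth muscle actin (Acta2) in stress fibres, and they share much of their contractile machinery with the smooth muscle of arteries, arterioles and the renal pelvis. Many genes of this machinery are driven by serum response factor (SRF), which binds a sequence called the CArG box and is assisted by myocardin in smooth muscle and by the myocardin-related factors MRTF-A and MRTF-B in cells under actin tension. Mature smooth muscle is further marked by the myosin heavy chain Myh11, smoothelin (Smtn), calponin 1 (Cnn1) and leiomodin 1 (Lmod1), whereas nonmuscle myosin, filamin and vinculin are found in nearly every cell.

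Total counts were 7716126 to 11680809 per Con mouse, 5444833 to 7673215 per Ade mouse and 5728589 to 8305968 per Ade + IMC mouse. Levels are given as the count scaled to a common library size after TMM adjustment (CPM), so a level describes a share of the RNA of the kidney. In the smallest library of each group, 3 counts correspond to 0.389, 0.551 and 0.524 CPM by total count, without the TMM adjustment. This floor covers counting error only and is not on the TMM-adjusted scale of the levels. Fewer cells of a type and less RNA per cell cannot be told apart in whole tissue. The summed levels of some cell type markers differed between the groups. The summed level of 7 kidney epithelial markers was 16610 to 23760 CPM in Con, 5298 to 12180 in Ade and 7884 to 13710 in Ade + IMC mice, so the kidney label held in every group. The summed level of 6 macrophage markers was 155 to 196, 955 to 1631 and 865 to 1406 CPM, and that of 5 tubular injury markers was 1421 to 1796, 5339 to 17690 and 3029 to 11730 CPM. Most of the injury sum was Spp1, at 1396 to 1770, 4946 to 16430 and 2658 to 10950 CPM. The median log2 change of the 5 injury markers against Con was 6.96 in Ade and 5.68 in Ade + IMC mice. The 7 endothelial markers summed to 540 to 846, 380 to 700 and 451 to 872 CPM, and the 6 podocyte markers to 770 to 986, 288 to 1021 and 672 to 1457 CPM. The 5 measured of 8 skeletal muscle markers summed to at most 10.9 CPM in any mouse. The 4 measured of 5 adipocyte markers reached 6.93 CPM in Con, 61.9 in Ade and 281 in Ade + IMC mice. The part of these shifts in the results on the 32 genes was not tested.

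To show the element through which SRF acts, promoter windows from 250 bases before to 50 bases after the start site (RefSeq, GRCm38.p6) were searched on both strands, and 24 of the 32 genes had a window. The other 8 were Actg2, Fap, Gli1, Meox1, Myh11, Scx, Tagln and Thy1. A CArG box was present in 4 of the 24 genes (16.7%), against 1.81% of all 27025 genes with a window. A CArG-like box, in which 1 of the 6 inner bases is neither A nor T, was present in 2 of 24 (8.33%), against 9.69% of all genes. Stretches upstream of the start site are printed for the 5 genes with either element, 5′ to 3′ on the strand of the gene, with the boxes in capitals. Acta2 has CArG-like boxes that begin 84 and 34 bases upstream, Cnn2, Myl6 and Vcl have a CArG box that begins 56, 50 and 227 bases upstream, and Myl9 has a CArG box 161 and a CArG-like box 99 bases upstream. Myl6 has 2 annotated start sites, and its box lies before the downstream one, while the window at the 5′ end of the gene held none.
Acta2 (chr19:34255374-34255487, minus strand): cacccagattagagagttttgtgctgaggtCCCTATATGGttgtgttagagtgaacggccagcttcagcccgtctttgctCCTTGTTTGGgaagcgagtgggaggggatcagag
Cnn2 (chr10:79988514-79988583, plus strand): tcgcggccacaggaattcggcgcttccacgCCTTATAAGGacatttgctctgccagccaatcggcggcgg
Myl6 (chr10:128493020-128493089, minus strand): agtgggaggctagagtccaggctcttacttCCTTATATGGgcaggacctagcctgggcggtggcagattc
Myl9 (chr2:156775273-156775404, plus strand): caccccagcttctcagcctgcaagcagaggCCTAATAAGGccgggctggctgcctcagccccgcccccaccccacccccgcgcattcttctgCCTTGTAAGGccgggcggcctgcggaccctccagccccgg
Vcl (chr14:20929148-20929210, plus strand): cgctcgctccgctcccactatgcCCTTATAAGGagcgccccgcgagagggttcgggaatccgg
The letters GGAATG, the core that TEAD factors bind as partners of YAP, stood on either strand in a window of 11 of the 24 genes (45.8%), against 16.6% of all genes. A match of letters in a promoter is a description and not a measured binding site.

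The question of the Ade and Con comparison was how adenine-induced kidney disease changed these genes. Of the 32 genes, 23 rose, 2 fell and 7 did not pass the test in the Ade mice (edgeR's quasi-likelihood test over 14612 genes, Benjamini-Hochberg adjusted p below 0.1). Over all genes tested, 35.1% rose and 32.2% fell. Since earlier results were known when the genes were chosen, the count is a description of the set. The median log2 change of the set was 0.996, beside 0.02 for all genes tested. In 19 of the 32 genes every Ade mouse lay above every Con mouse, against 22.4% of all genes, and in 1 gene (Cnn3) every Ade mouse lay below, against 20.6%. By role, the median log2 change ran from 0.70 in the smooth muscle genes to 2.48 in the mesenchymal transcription factors, as the plot of changes against Con shows.

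**Figure D1:**
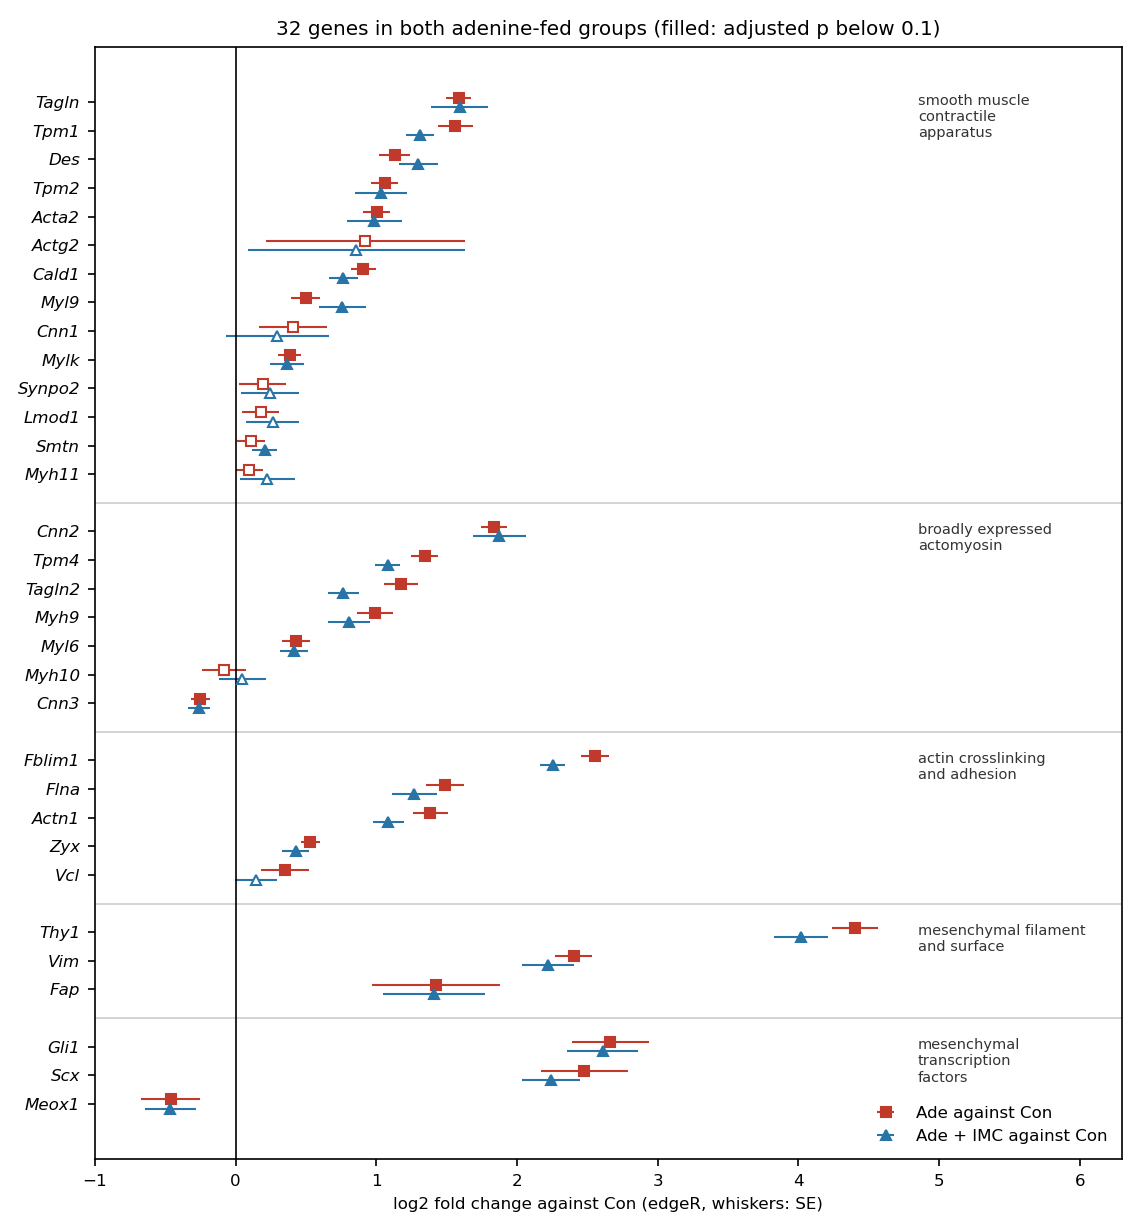
Log2 fold change against Con (x axis, edgeR, whiskers are the standard error) of the 32 genes, grouped by role, for the Ade mice (red squares) and the Ade + IMC mice (blue triangles). Filled symbols passed an adjusted p of 0.1. Thy1 lies farthest to the right at 4.40 and 4.02, Meox1 and Cnn3 lie left of 0 with filled symbols, and Myh11 lies near 0 with open symbols.

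In the smooth muscle contractile apparatus 8 of 14 genes rose, 0 fell and 6 did not pass the test, with a median log2 change of 0.70. Acta2, smooth muscle alpha actin (chr19:34241090-34255590), had levels of 84.3, 92.4, 72.5, 79.2 and 90.9 CPM in the 5 Con mice. The Ade mice had 142 to 188 CPM (median 165) and did not overlap the Con mice. Acta2 was 2.0-fold higher in Ade (log2 1.0 ± 0.09 SE, n = 6 and 5, adjusted p = 1.41e-06, edgeR). Tagln, transgelin (SM22 alpha), an actin-binding protein of smooth muscle (chr9:45929619-45936058), had 43.6, 51.4, 50.8, 42.5 and 44.4 CPM in the Con mice and 119 to 156 CPM (median 137) in the Ade mice. Every Ade mouse lay above every Con mouse, and the rise was 3.0-fold (log2 1.59 ± 0.09 SE, adjusted p = 1.57e-08, edgeR). Exons of Tagln share 1349 of 1988 bases with genes on the opposite strand, Pcsk7 among them, and the use of strand in the counting is not given in the sources used here. Pcsk7 itself was lower in Ade (log2 −0.25 ± 0.08 SE, adjusted p = 0.0141, edgeR). Des, desmin, the muscle intermediate filament that also marks pericytes and mesangial cells (chr1:75360329-75368579), had 18.0, 20.8, 21.3, 21.7 and 22.5 CPM in the Con mice and 32.8 to 50.8 CPM (median 46.0) in the Ade mice, again without overlap. Its rise was 2.19-fold (log2 1.13 ± 0.11 SE, adjusted p = 2.04e-06, edgeR).

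The other genes of the apparatus that rose were the tropomyosins Tpm1 (2.95-fold) and Tpm2 (2.08-fold), which stabilise actin filaments, and caldesmon (Cald1, 1.87-fold), which restrains actomyosin. The regulatory light chain Myl9 rose 1.41-fold and the myosin light chain kinase Mylk 1.30-fold. Myl9 carries a CArG box in the promoter shown above, and the part of the box in its rise was not tested. The 6 genes that did not pass the test include the definitive markers of mature smooth muscle. Myh11, smooth muscle myosin heavy chain (chr16:14194535-14291372), had 96.9, 122.6, 102.0, 103.3 and 105.2 CPM in the Con mice and 102 to 139 CPM (median 105) in the Ade mice. The groups overlapped, and the log2 difference was 0.10 ± 0.10 SE (adjusted p = 0.389, edgeR). The actin-binding Smtn and Synpo2 and the filament nucleator Lmod1 gave log2 differences of 0.11, 0.19 and 0.18, with adjusted p values of 0.367, 0.335 and 0.253. Cnn1 gave 0.41 ± 0.24 SE (adjusted p = 0.154, edgeR), and passed as higher with the leading digit of the mouse numbers as a block (log2 0.42, adjusted p = 0.0955) and without Con replicate 2 (log2 0.65, adjusted p = 0.0176). Synpo2 passed without Ade replicate 1 (log2 0.30, adjusted p = 0.0680). Actg2, the enteric gamma actin of visceral muscle and a near-identical copy of Acta2 in sequence, had 0 to 18 counts per Con mouse and 4 to 35 per Ade mouse, and did not pass (log2 0.92 ± 0.70 SE, adjusted p = 0.273, edgeR). With the block it passed as higher (log2 1.22, adjusted p = 0.0298), and the difference was positive within each digit. Reads of the actins could be split between copies in counting, so the value of Actg2 is uncertain.

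Genes of the set were also set against each other by ratios within each library, which do not depend on library size. The 6 pairs were chosen after the values were seen, so the ratios are a description with no test. The log2 ratio of Acta2 to Myh11 was −0.34 ± 0.13 (SD, n = 5) in Con and 0.57 ± 0.14 (SD, n = 6) in Ade mice, a difference of 0.91 without overlap. For Tagln to Myh11 the values were −1.19 ± 0.11 and 0.30 ± 0.21 (SD, n = 5 and 6), again without overlap. The log2 ratio of Acta2 to Lmod1 was 0.82 higher in Ade than in Con mice. That of Tpm4 to Tpm2 was 0.28 higher in Ade and 0.09 higher in Ade + IMC than in Con mice, with overlapping groups.

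**Figure D2:**
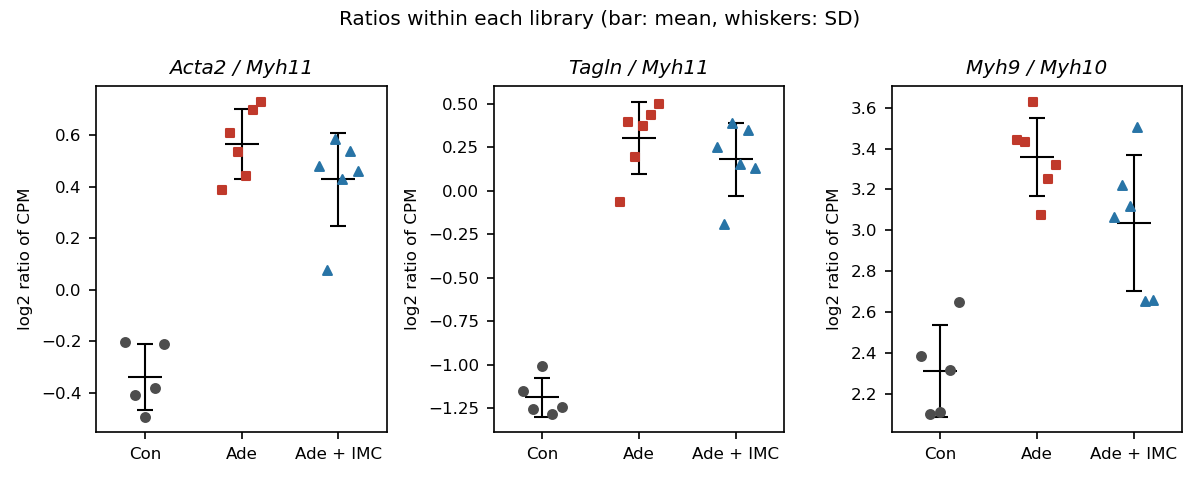
Log2 ratio of CPM within each library (y axis) for Acta2 to Myh11, Tagln to Myh11 and Myh9 to Myh10 in the 3 groups, with 1 symbol per mouse, the mean as a bar and the SD as whiskers. The Con mice lie below every mouse of both adenine-fed groups in all 3 panels.

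Among the broadly expressed actomyosin genes, 5 of 7 rose, 1 fell and 1 did not pass the test (median log2 change 0.99). Cnn2, calponin 2, the calponin of nonmuscle cells (chr10:79988584-79996062), had 27.2, 32.6, 37.4, 27.8 and 32.5 CPM in the Con mice and 102 to 122 CPM (median 110) in the Ade mice. It rose 3.57-fold (log2 1.84 ± 0.10 SE, adjusted p = 1.09e-08, edgeR) without overlap. The Cnn2 promoter holds a CArG box, as do those of Myl9 (1.41-fold), Myl6 (1.34-fold) and Vcl (1.28-fold) printed above. The windows of Fblim1 and Vim, which rose more than Cnn2, held none. The part of the box in these changes was not tested. Cnn3, calponin 3 (chr3:121426497-121458207), moved the other way, with 183 to 202 CPM in the Con mice and 151 to 172 CPM in the Ade mice. Every Ade mouse was below every Con mouse (log2 −0.25 ± 0.07 SE, adjusted p = 0.00554, edgeR). The log2 ratio of Cnn2 to Cnn1 was 1.36 higher in Ade than in Con mice.

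Tpm4, the short tropomyosin of nonmuscle stress fibres (chr8:72134975-72153142), had 80.1, 90.2, 90.1, 74.5 and 82.0 CPM in the Con mice and 172 to 239 CPM (median 209) in the Ade mice, a rise of 2.54-fold. Tagln2, the broadly expressed transgelin (chr1:172500047-172507380), had 116, 133, 136, 120 and 162 CPM in the Con mice and 243 to 352 CPM (median 293) in the Ade mice, a rise of 2.26-fold. Neither gene overlapped between the groups. The nonmuscle myosin heavy chain Myh9 rose 1.99-fold (526 ± 57.6 to 1029 ± 155.5 CPM, SD, n = 5 and 6), whereas its paralog Myh10 did not pass the test (108 ± 25.3 and 101 ± 15.8 CPM, adjusted p = 0.678). The log2 ratio of Myh9 to Myh10 differed by 1.04 between Ade and Con. The essential light chain Myl6 rose 1.34-fold.

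All 5 actin crosslinking and adhesion genes rose (median log2 change 1.38). Fblim1, migfilin, which links filamin to the integrin adaptor kindlin at cell-matrix adhesions (chr4:141576062-141606096), had 16.7, 14.2, 14.6, 15.98 and 15.2 CPM in the Con mice and 76.3 to 98.5 CPM (median 92.6) in the Ade mice. It rose 5.88-fold (log2 2.55 ± 0.10 SE, adjusted p = 1.09e-09, edgeR), beside 2.80-fold for its partner filamin A (Flna) and 2.61-fold for alpha-actinin 1 (Actn1), both of which crosslink actin. Zyxin (Zyx), recruited to adhesions under tension, rose 1.45-fold. Vinculin (Vcl), which ties talin to actin, was the weakest call at 1.28-fold (adjusted p = 0.0873, edgeR). Its groups overlapped, at 34.0 to 53.0 CPM in Con and 35.6 to 79.4 CPM in Ade mice, and Ap3m1 on the other strand covers 2090 of the 8191 exonic bases of Vcl. The call of Vcl was lost under DESeq2, RLE scaling, no filter on low counts, a threshold of 0.05 and the block on mouse numbers, and on leaving out Ade replicate 1, 4 or 6 or Con replicate 2, 3, 4 or 5, with adjusted p of 0.123 in the block.

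All 3 genes of the mesenchymal filament and cell surface rose. Thy1 (CD90), a glycoprotein of the fibroblast surface that is also carried by T cells and neurons (chr9:44043384-44048579), had 3.13, 3.18, 3.39, 4.16 and 2.87 CPM in the Con mice and 49.9 to 86.5 CPM (median 70.6) in the Ade mice. This was the largest rise of the set, at 21.1-fold (log2 4.40 ± 0.17 SE, adjusted p = 1.07e-09, edgeR). Vim, vimentin, the intermediate filament of mesenchymal and dedifferentiated tubular cells (chr2:13573927-13582826), had 59.4, 79.7, 74.2, 64.2 and 78.7 CPM in the Con mice and 299 to 437 CPM (median 373) in the Ade mice, a rise of 5.29-fold (log2 2.40 ± 0.13 SE, adjusted p = 1.42e-08, edgeR). Fap, a protease of activated fibroblasts, stayed low, at 0.392 to 2.45 CPM in Con and 0.676 to 4.51 CPM in Ade mice, and rose 2.68-fold with overlapping groups (adjusted p = 0.0151, edgeR). Thy1 is shared with T cells, for which no marker list was examined. Vim is shared with leukocytes, and the macrophage markers given above moved in the same direction. The part of these cells in the rises was not tested.

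Of the 3 mesenchymal transcription factors, Gli1 and Scx rose and Meox1 fell. Gli1, the effector of Hedgehog signalling that marks perivascular mesenchymal cells (chr10:127329882-127341974), had 1.11, 0.722, 2.03, 1.30 and 1.83 CPM in the Con mice and 6.19 to 12.4 CPM (median 7.75) in the Ade mice. The groups did not overlap, and the rise was 6.34-fold (log2 2.66 ± 0.27 SE, adjusted p = 3.01e-06, edgeR). Gli1 shares 327 of 4995 exonic bases with genes on the other strand, Arhgap9 among them, and Arhgap9 rose by 2.92 on the log2 scale, so the value of Gli1 is uncertain. Scx, scleraxis, a regulator of tendon and collagen genes (chr15:76457452-76459458), had 2.42, 3.47, 2.57, 1.82 and 1.96 CPM in the Con mice and 6.90 to 22.4 CPM (median 11.1) in the Ade mice, a rise of 5.58-fold (log2 2.48 ± 0.31 SE, adjusted p = 1.68e-05, edgeR). Meox1, a homeobox factor of the somite lineage that is induced in activated cardiac fibroblasts (chr11:101877510-101894374), had 8.48, 10.1, 10.2, 11.3 and 10.2 CPM in the Con mice and 4.32 to 11.2 CPM (median 7.12) in the Ade mice. The groups overlapped and the change was weak (log2 −0.46 ± 0.21 SE, adjusted p = 0.0720, edgeR). The call of Meox1 was lost at a threshold of 0.05, with upper-quartile scaling, and on leaving out Ade replicate 1, 2 or 6 or Con replicate 2, 3, 4 or 5.

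**Figure D3:**
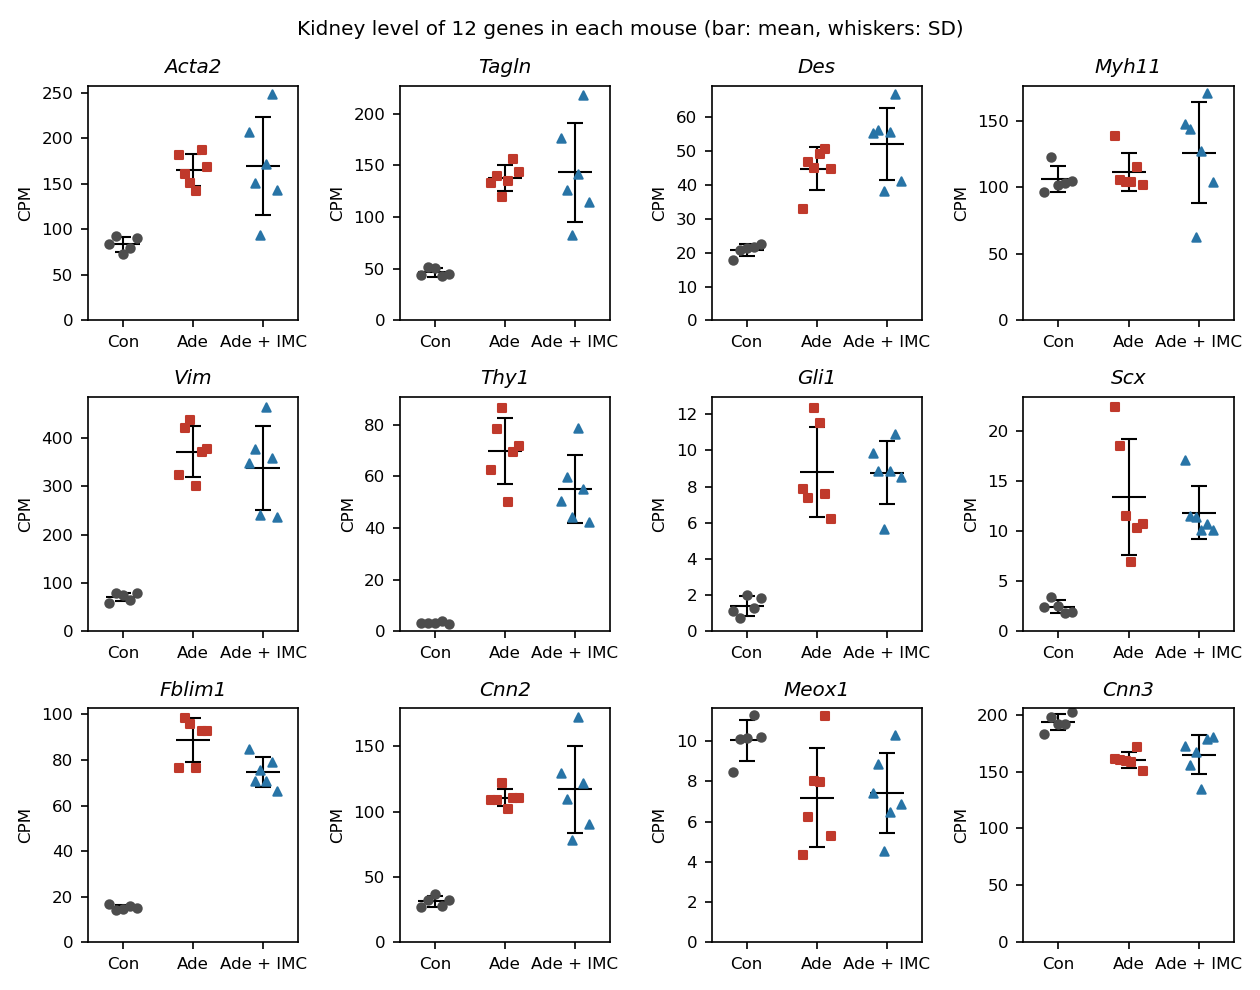
Level in CPM (y axis, from 0) of 12 genes in each Con (grey circles), Ade (red squares) and Ade + IMC mouse (blue triangles), with the mean as a bar and the SD as whiskers. For Acta2, Tagln, Des, Vim, Thy1, Gli1, Scx, Fblim1 and Cnn2 every adenine-fed mouse lies above every Con mouse, Myh11 and Meox1 overlap, and Cnn3 lies lower in both adenine-fed groups.

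Compared per kilobase of exon, which allows levels of different genes to be set side by side, the most abundant genes of the set in Con kidneys were Tagln2 (64.0 CPM per kb), Cnn3 (63.7) and Myl9 (52.6), ahead of Myh9 (40.7) and Acta2 (38.2). The least abundant were Gli1 (0.280 CPM per kb) and Fap (0.20). In Ade kidneys Tagln2 (142), Tpm4 (94.5), Myh9 (79.6), Vim (78.2) and Acta2 (75.3 CPM per kb) led, and Cnn3 stood at 52.7. Vim had been at 15.0 CPM per kb in Con kidneys. These levels rest on the union of annotated exons, which need not be the transcripts used in the kidney.

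The genes that act on this machinery were examined by lists, to be read beside the 35.1% of all genes that rose and the 32.2% that fell. Of 10 genes listed for SRF and its cofactors and for Yap1, Wwtr1 and the TEAD factors, 5 rose and 0 fell. Srf rose from 42.0 ± 1.59 to 51.9 ± 3.2 CPM (SD, n = 5 and 6, log2 0.33, adjusted p = 0.000893, edgeR) and Mrtfa, which encodes MRTF-A, from 27.5 ± 2.55 to 48.9 ± 4.68 CPM (log2 0.85, adjusted p = 3.61e-06). Tead2, a partner of YAP, rose by 2.18 on the log2 scale. Of the SRF and YAP target genes, 8 of 11 rose and 2 fell, with Tgfb1i1 (Hic-5, an adhesion protein, log2 1.77) and Csrp1 (a LIM protein of smooth muscle, log2 0.97) at the smallest adjusted p, and Fhl1, a LIM protein of muscle, lower (log2 −0.80).

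Of the focal adhesion partners tested, 7 of 14 rose and 1 fell, beside the same 35.1% and 32.2%, with a median log2 change of 0.12. The fibronectin receptor chain Itga5 rose by 1.53 and the LIM protein Pdlim7 by 1.87 on the log2 scale, and the integrin-linked parvin Parva fell (log2 −0.27, adjusted p = 0.0345, edgeR). Of the pericyte and fibroblast identity genes, 12 of 14 rose and 0 fell. The pericyte receptor Pdgfrb rose from 75.4 ± 8.08 to 157 ± 18.3 CPM (SD, n = 5 and 6, log2 1.08, adjusted p = 1.49e-06). The matrix genes Col1a1 and Col3a1 rose by 4.20 and 4.13 on the log2 scale.

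The Ade + IMC mice were compared with the Con mice on reads recovered from the normalized values. Of the 32 genes, 23 rose, 2 fell and 7 did not pass the test (edgeR, adjusted p below 0.1), where 30.9% of all 14578 genes tested rose and 32.3% fell. The median log2 change was 0.83, beside −0.02 for all genes. In 18 genes every Ade + IMC mouse lay above every Con mouse (20.5% of all genes) and in 1, Cnn3, every mouse lay below (16.4%). This comparison shares its Con mice with the comparison above, so the 2 sets of values are given side by side only. Thy1 was 16.2-fold higher, Gli1 6.10-fold, Fblim1 4.77-fold, Scx 4.73-fold, Vim 4.66-fold and Cnn2 3.66-fold.

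Acta2 was 1.98-fold higher in Ade + IMC than in Con mice (log2 0.99 ± 0.19 SE, n = 6 and 5, adjusted p = 0.000811, edgeR), Tagln 3.02-fold and Des 2.46-fold. The fit gave Smtn as higher (log2 0.21, adjusted p = 0.0709) and did not call Vcl (log2 0.15, adjusted p = 0.421), which passed without Ade + IMC replicate 6. The call of Smtn was lost with no filter on low counts, at a threshold of 0.05, with the block on mouse numbers, and on leaving out Ade + IMC replicate 1 or 5 or Con replicate 1, 4 or 5. Myh11 gave a log2 difference of 0.23 ± 0.20 SE (adjusted p = 0.343), and the log2 ratio of Acta2 to Myh11 was 0.43 ± 0.18 (SD, n = 6), 0.77 above that of the Con mice. Meox1 (log2 −0.46, adjusted p = 0.0434) and Cnn3 (log2 −0.26, adjusted p = 0.0109) were lower, and the call of Meox1 was lost with all 17 mice in the fit. Of the lists, 5 of 10 genes for SRF and its cofactors and for Yap1, Wwtr1 and the TEAD factors rose and 0 fell. For the SRF and YAP targets, 7 of 11 rose and 2 fell. Among the focal adhesion genes 7 of 14 rose and 4 fell, and among the pericyte and fibroblast genes 13 of 14 rose and 0 fell. Over all genes, 30.9% rose and 32.3% fell.

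The comparison of the Ade + IMC with the Ade mice asked whether IMC changed these genes under adenine feeding. It was made by limma on log2(normalized count + 1), which understates the change of low genes. Of the 32 genes 0 passed an adjusted p of 0.1, and 0% of all 14696 genes tested did. At an unadjusted p below 0.05, 4 genes were lower in Ade + IMC mice (Tagln2, Fblim1, Tpm4 and Thy1) and 0 were higher, where 3.35% of all genes were lower and 3.37% higher. The count of lower genes was 2 without Ade + IMC replicate 3 or 6 or Ade replicate 2, 3 or 6, where 1.94% to 3.27% of all genes were lower. It was 6 without Ade replicate 4, where 5.61% of all genes were lower. On the recovered reads, 0 of the 31 genes that edgeR tested (0% of all genes) and 0 of 32 by DESeq2 (0.174% of all genes) passed. At an unadjusted p below 0.05, 4 were lower and 0 higher by each tool, where 4.03% of all genes were lower and 2.69% higher by edgeR, and 2.96% and 2.75% by DESeq2. The median log2 difference of the set was −0.03, beside 0.01 for all genes, and the values of the groups overlapped in all 32 genes. A p that misses the threshold does not show that the groups were alike, and the intervals below give the differences that remain possible.

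Tagln2 had the smallest unadjusted p of the set. Its level was 243 to 352 CPM (median 293) in Ade and 184 to 264 CPM (median 230) in Ade + IMC mice, and 4 of the 6 Ade + IMC mice lay below every Ade mouse. The log2 difference was −0.37 (95% interval −0.61 to −0.13, n = 6 and 6, adjusted p = 0.706, limma), and the two-sided exact permutation test gave an unadjusted p of 0.0108. The mouse numbers begin with 2, 3 or 4, with a meaning that the labels do not give. Within these digits the Tagln2 differences were −0.43, −0.43 and −0.37 (exact permutation within digits, p = 0.00556, the smallest it can give). With the digit as a block in limma, Tagln2 was the only gene of the 32 that passed (adjusted p = 0.0602), where 0.905% of all genes did and 0.408% were lower. It was also called lower with the block in edgeR and DESeq2, where 0.362% and 1.2% of all genes were lower.

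Fblim1 had 66.3 to 84.96 CPM (median 73.3) in Ade + IMC mice, and 4 of these 6 mice lay below every Ade mouse. Its log2 difference was −0.26 (95% interval −0.45 to −0.07, adjusted p = 0.711, limma, exact permutation p = 0.0195), with −0.17, −0.40 and −0.28 within the digits. Tpm4 had 159 to 208 CPM (median 179) in Ade + IMC mice and a log2 difference of −0.22 (95% interval −0.42 to −0.02, adjusted p = 0.715, limma, exact permutation p = 0.0411). Thy1 had 42.5 to 78.6 CPM (median 52.8) in Ade + IMC mice, with a log2 difference of −0.36 (95% interval −0.71 to −0.02, adjusted p = 0.731, limma, exact permutation p = 0.0758). All 3 were lower within each digit. None of these p-values was adjusted over the set, and none of these genes passed over all genes in limma.

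Of the 14 smooth muscle genes, 7 had a positive and 7 a negative difference, from −0.23 (Cnn1) to 0.26 (Myl9), and every interval included 0. Acta2 had 94.1 to 249 CPM (median 162) in Ade + IMC mice, and its log2 difference from Ade was −0.03 (95% interval −0.43 to 0.36, exact permutation p = 0.885). Tagln had 82.4 to 218 CPM (median 134) and a difference of −0.02 (interval −0.41 to 0.38, exact permutation p = 0.933). The sign of both turned under edgeR and DESeq2 on recovered reads and under the block. Myh11 had 62.8 to 171 CPM (median 135) and a difference of 0.10 (interval −0.32 to 0.53), and Des had 38.1 to 66.9 CPM (median 55.4) and a difference of 0.19 (interval −0.12 to 0.50). Myl9 gave the largest positive difference of the set (interval −0.09 to 0.62), and with the block its unadjusted p was 0.0251 (adjusted p = 0.280, limma). Tpm1 gave −0.21 (interval −0.45 to 0.04). Vim had 237 to 464 CPM (median 353) and a difference of −0.18 (interval −0.54 to 0.18).

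Among the regulators and the calponins Cnn2 and Cnn3 the Ade + IMC levels were 5.67 to 10.9 CPM for Gli1, 10.1 to 17.1 for Scx, 4.56 to 10.3 for Meox1, 78.1 to 172 for Cnn2 and 135 to 180 for Cnn3. Their log2 differences from Ade ranged from −0.11 (Scx) to 0.06 (Meox1), and that of Cnn1 was −0.23. By role, the median log2 difference was −0.01 for the 14 smooth muscle genes, 0.02 for the 7 broadly expressed genes and −0.20 for the 5 crosslinking and adhesion genes, all 5 of which had a negative value. The log2 ratios of Acta2 to Myh11, Tagln to Myh11 and Myh9 to Myh10 differed by −0.14, −0.12 and −0.32 between Ade + IMC and Ade mice, with overlapping groups.

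**Figure D4:**
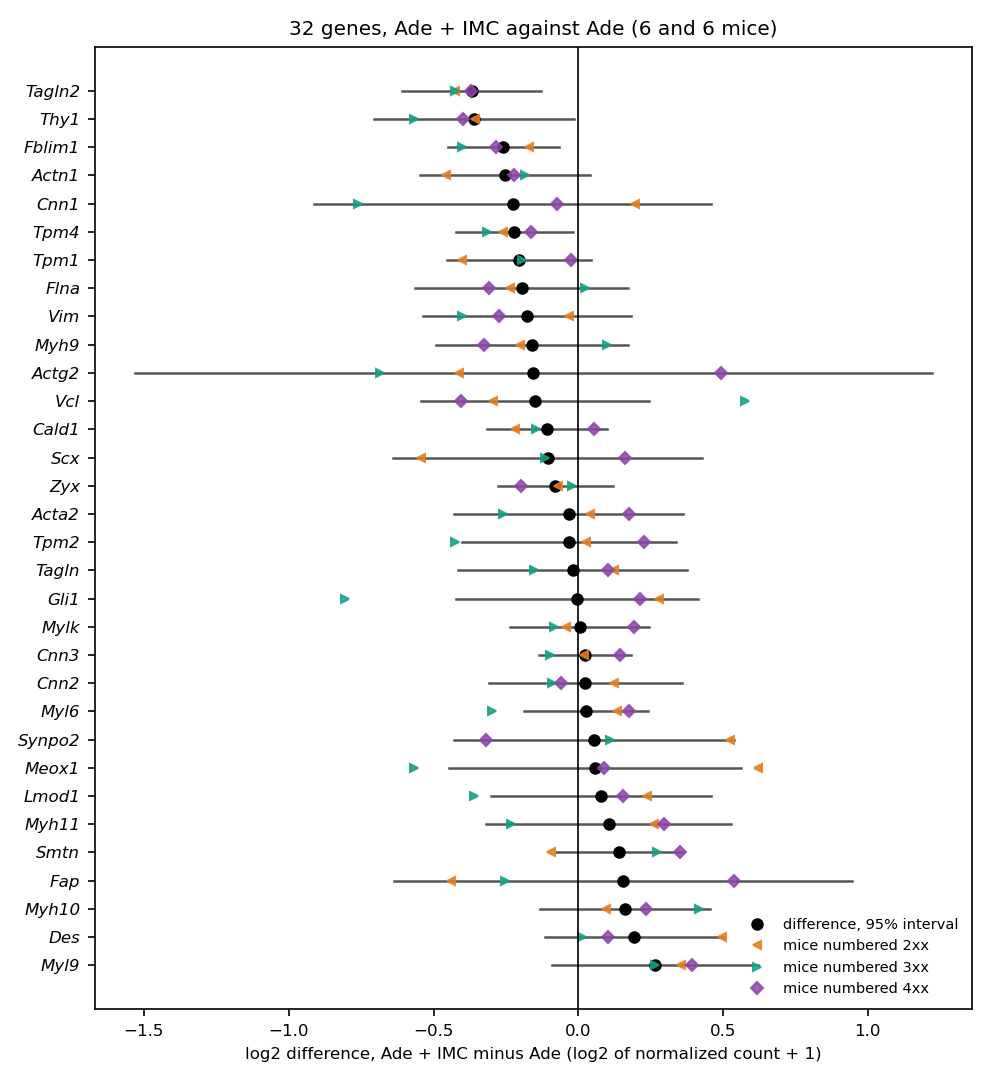
Log2 difference between Ade + IMC and Ade mice (x axis, log2 of normalized count + 1) of the 32 genes, with the 95% interval of limma as a line and the difference within each of the 3 leading digits of the mouse numbers as coloured symbols. The intervals of Tagln2, Fblim1, Tpm4 and Thy1 lie below 0, and their symbols lie left of 0 for all 3 digits.

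Some Ade + IMC mice were high or low in most of the smooth muscle genes. Mouse 310 (replicate 3) was the lowest of the 6 Ade + IMC mice in 13 of the 14 smooth muscle genes, and mouse 410 (replicate 5) was the highest in 13 of 14. The median log2 deviation of the 14 genes from the group mean was −0.62 in mouse 310, 0.45 in mouse 410, 0.26 in mouse 211 and −0.23 in mouse 412. In the other 18 genes the deviations of these mice were −0.14, 0.11, 0.16 and −0.26. For the 14 genes the 6 Ade mice ranged from −0.13 to 0.11 and the 5 Con mice from −0.09 to 0.14, with Con mouse 202 the highest of its group in 10 of the 14. The SD of Acta2 was 53.5 CPM in Ade + IMC and 17.6 CPM in Ade mice, and that of Tagln was 48.0 and 12.4 CPM.

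The summed level of 7 urothelial markers, genes of the lining of the renal pelvis, was 4.16 to 40.9 CPM in Con, 15.8 to 131 CPM in Ade and 10.9 to 145 CPM in Ade + IMC mice. The uroplakin Upk1b was at 0.97 CPM in mouse 310, the lowest of its group, and at 22.1 and 26.1 CPM in mice 410 and 211. Upk1b was as high, at 26.1 CPM, in Ade mouse 207, whose smooth muscle deviation of 0.11 was the highest of the 6 Ade mice. In the Con group, mouse 202 had the highest Upk1b (5.20 CPM) and the highest smooth muscle deviation (0.14). The part of urothelial tissue in the contractile values was not tested. Without mouse 310, 25 of the 32 genes rose against Con (30.8% of all genes), Myh11 and Lmod1 being added. Against Ade, 2 genes were then lower (Tagln2 and Fblim1, 3.27% of all genes) and 2 higher (Myh11 and Myl9, 3.53%) at an unadjusted p below 0.05. Without mouse 410, 22 rose against Con (30% of all genes), and 3 were lower (2.43%) and 0 higher (2.38%) against Ade. Without mouse 412 (replicate 6), 25 rose against Con (32.7% of all genes), Lmod1 and Vcl being added.

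**Figure D5:**
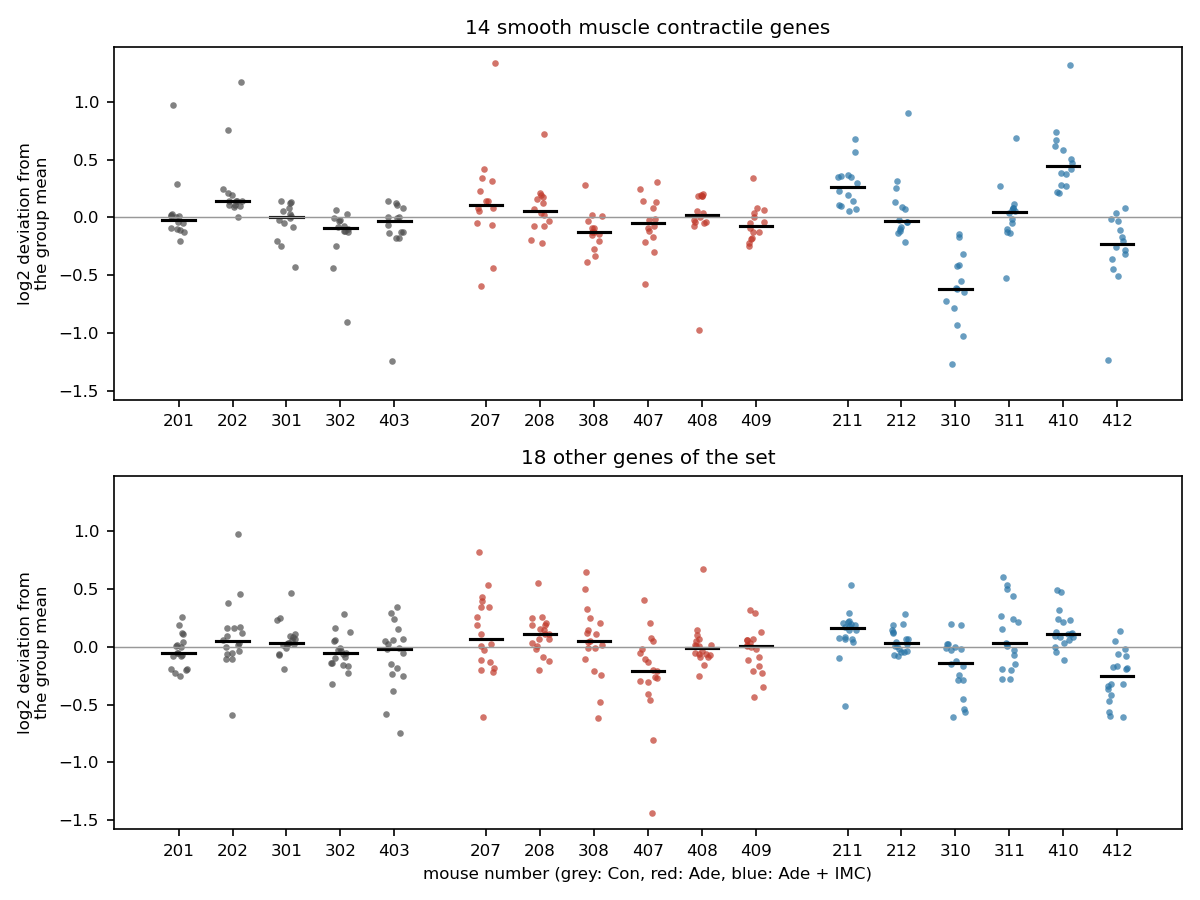
Log2 deviation of each gene from the mean of its group (y axis, log2 of CPM + 0.5) in each of the 17 mice (x axis), for the 14 smooth muscle genes (top) and the other 18 genes (bottom), with the median of the genes in each mouse as a black line. In the top panel mouse 310 lies lowest with a median of −0.62 and mouse 410 highest with 0.45.

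The covariation of Acta2 with 11 other genes was measured in the 12 adenine-fed mice on the log2(normalized count + 1) scale. Acta2 followed Tagln most closely (Pearson r = 0.96, permutation p = 1e-05, the smallest these permutations can give, adjusted p = 0.00011, Spearman coefficient 0.88, permutation p = 0.00025). Without mice 310 and 410, the farthest from the Acta2 median, r was 0.86. Within groups r was 0.57 in the 6 Ade mice (exact permutation p = 0.239) and 0.99 in the 6 Ade + IMC mice (exact permutation p = 0.00139). For Myh11 r was 0.89 (permutation p = 0.00037, adjusted p = 0.00204, Spearman coefficient 0.75), with 0.58 without those mice, and 0.62 and 0.94 within the Ade and Ade + IMC groups.

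For the urothelial Upk1b r was 0.75 (permutation p = 0.00356, adjusted p = 0.013), the Spearman coefficient was 0.63 (permutation p = 0.0326, adjusted p = 0.12), and r fell to 0.50 without the same mice. The remaining genes did not pass the adjustment at 0.05, with r of 0.60 for Actg2, 0.56 for Des, 0.51 for Vim, 0.47 for Meox1, 0.42 for Pdgfrb, 0.30 for Thy1, 0.20 for Col1a1 and 0.01 for Fap. All these points share their libraries and scaling. Over the 12 mice Acta2 varied with Tagln and Myh11, most closely within the Ade + IMC group, and within the 6 Ade mice this was not resolved. Upk1b passed the adjustment by the Pearson coefficient only. The relation of Acta2 to the fibroblast genes Thy1, Fap and Col1a1 was not resolved with 12 mice.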

How the data were processed

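RNA of frozen kidneys was sequenced by the authors from TruSeq libraries. Per the labels, Trimmomatic 0.39, FastQC 0.11.8, Bowtie2 2.2.5, HTSeq 0.9.1 and DESeq2 were used, whereas the methods of the study name STAR and mm10. Strand use and annotation release are not given in the sources used here. The authors deposited the raw count per gene of Con and Ade mice and, for Ade and Ade + IMC mice, a signal, the count divided by a DESeq2 size factor. A deposited table of the authors' own comparison (log2 fold change, p-value) was used only to pair gene names with identifiers. The normalized values gave whole reads in 100% of cases (tolerance 0.01), and 0 recovered reads differed from the raw counts of the 6 Ade mice. Libraries of a group differed beyond counting noise (smallest chi-square divided by its degrees of freedom, 4.21).

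Con was compared by edgeR 4.0.16 (quasi-likelihood, TMM, default filter on low counts), and Ade + IMC with Ade by limma 3.58.1 with a trend (mean normalized count of at least 10), in R 4.3.3. DESeq2 1.42.0 was an alternative. Calls were made at a Benjamini-Hochberg adjusted p below 0.1 over all genes tested. The tests were tested on simulated data. Two-sided exact permutation tests served for single values, and correlations were tested by 100000 permutations (12 mice) or exactly (6 mice). Separate mice were the replicates. Alternatives changed the tool, scaling, filter, pseudocount, threshold, mice in the fit and a block on the leading digit of mouse numbers. This block with edgeR or DESeq2 on recovered reads was added after the data were seen, as were the ratios. The genes and lists were chosen with earlier results of these data known. All 32 genes were named. Values by mouse or range were given for Acta2, Tagln, Myh11, Des, Vim, Thy1, the 6 largest rises and up to 4 largest falls called in Ade against Con, and the 3 smallest p in Ade + IMC against Ade. A further list is not reported here. In each list reported, Srf, Mrtfa, Pdgfrb and Col1a1, the 2 called genes of smallest adjusted p and the called gene of largest opposite change were named. Pcsk7, Ap3m1, Arhgap9, Upk1b and Spp1 were added beside the results they touch. Gene coordinates are GENCODE vM21 on GRCm38.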

Additional observations from a re-analysis of the deposited data

Results flagged for a closer look

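Among 96 sets of values (32 genes in 3 groups), 4 held a mouse set apart from the others of its group by a gap that Dixon's test passes at 95%, where chance gives about 1 in 20. Des was 32.8 CPM in Ade mouse 207, against 44.6 to 50.8 in the other Ade mice. Myh10 was 71.2 CPM in Ade mouse 308, against 102 to 119. Vcl was 32.4 CPM in Ade + IMC mouse 412, against 50.6 to 58.5. Scx was 17.1 CPM in Ade + IMC mouse 211, against 10.1 to 11.5.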

How the results depend on the processing

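Against Con, 22 to 24 of the 32 genes rose in Ade and 22 to 25 in Ade + IMC mice under every alternative. Of all genes tested, 27.1% to 38.4% rose in Ade and 25.7% to 35.5% in Ade + IMC mice under these alternatives. The number that fell in Ade was 1 at a threshold of 0.05 and with upper-quartile scaling, where 29.2% and 28.6% of all genes fell. On leaving out a mouse it was 1 to 2, where 30% to 33.4% of all genes fell. In Ade + IMC the number that fell was 1 with all 17 mice in the fit, Meox1 being lost, where 28.8% of all genes fell. Against Ade, 1 gene (Tagln2) was called lower with the first digit as a replicate block in limma, edgeR and DESeq2. With it, 0.408%, 0.362% and 1.2% of all genes were lower. Otherwise 0 of the 32 genes were called, where at most 0.0753% of all genes were lower. At an unadjusted p below 0.05, the block gave 1 higher gene (Myl9) in limma and edgeR and 2 (Myl9 and Myh10) in DESeq2, where 7.4%, 6.67% and 5.35% of all genes were higher, and 5 lower genes in each (Tagln2, Tpm4, Actn1, Fblim1 and Thy1), where 6.26%, 6.67% and 4.44% were lower. On leaving out a mouse, 2 to 6 genes were lower and 0 to 2 higher at that threshold, where 1.94% to 5.61% of all genes were lower and 2.25% to 7.29% higher. The adjusted p of Tagln2 over its alternatives was 9.24e-05 to 0.996.

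Among the 14 genes given by mouse or range, these differences from Ade turned sign. Acta2 was 0.011 in edgeR, 0.0236 in DESeq2, 0.0265 with the block in limma, 0.0539 in edgeR and 0.0659 in DESeq2 with it, and −0.15 to 0.12 on leaving out a mouse. Tagln was 0.0318, 0.0443, 0.0507, 0.0888 and 0.1005 in the same order, and −0.15 to 0.13. Cnn2 was −0.00286 with the block in limma and −0.10 to 0.13. Of the other 18 genes, compared here with the block in limma alone, Tpm2 turned from −0.03 to 0.00433. On leaving out a mouse, Cnn3 was −0.000921 to 0.0748, Gli1 −0.10 to 0.11, Meox1 −0.0741 to 0.19 and Scx −0.27 to 0.0612. Myh10 was −0.20 to 0.0182 in Ade and −0.0792 to 0.14 in Ade + IMC against Con. The correlation of Acta2 was −0.39 with Des, −0.16 with Meox1 and −0.42 with Pdgfrb in Ade mice alone, −0.40 with Fap in Ade + IMC mice alone, and −0.11 with Meox1 without the 2 farthest mice. The cause was not tested. Actg2, Fap and Gli1 had under 20 counts in every Con mouse, and edgeR's filter left Actg2 out of some fits.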
